A study of Mus musculus with 20 samples.

Results

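The 35 genes described here code for proteins that copy DNA during S phase. The list was chosen with earlier results of these data known, so counts over it are not independent evidence. Each listed symbol was matched to the deposited array table, keeping for each gene the row that was brightest on average. All 35 were found among 30142 named genes. By role they were 4 origin licensing genes (Orc1, Orc6, Cdc6, Cdt1), 9 helicase genes (Mcm2, Mcm3, Mcm4, Mcm5, Mcm6, Mcm10, Cdc45, Gins1, Gins2) and 6 polymerase and primase genes (Pola1, Pola2, Prim1, Prim2, Pole, Pole2). A further 7 belonged to the sliding clamp, its loader and lagging strand processing (Pcna, Rfc3, Rfc4, Rfc5, Rpa2, Fen1, Lig1). The last were 4 genes of nucleotide supply (Rrm1, Rrm2, Tyms, Tk1), 2 of chromatin assembly (Chaf1a, Chaf1b) and 3 of S-phase entry and its checkpoint (Ccne1, Ccne2, Chek1).

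RNA was measured on 20 whole-transcript arrays from FVB/N mice. All groups, controls included, carried a genotype that includes floxed Rb and loss of p107, a relative of Rb, and tumors had been started by an adenovirus coding for Cre, the recombinase that cuts out floxed sequence, given into the bladder. There were 5 control bladders (numbered 1, 2, 4, 5 and 6), 7 bladder tumors, 3 treated bladders and 4 metastases, and 1 metastasis from a treated mouse. Treated mice were given the virus too, and then CM272, which inhibits both G9a, a histone methyltransferase, and DNA methyltransferases, at 5 mg/kg each day for 30 days, with cisplatin, a drug that crosslinks DNA, at 6 mg/kg once per week. The adenovirus is not tied to a cell type by any promoter named in the labels, and neither the organs of the metastases nor ages are given in the sources used here. Nothing says that samples of a group came from separate animals, so p-values cover only the spread among these samples, and that may be technical.

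Replication starts in 2 stages, as background. The origin recognition complex, with Cdc6 and Cdt1, loads the MCM helicase onto DNA before S phase, and cyclin E with its kinase partner, together with Cdc45 and the GINS proteins, then helps to turn the loaded ring into a moving helicase. Polymerase alpha and its primase lay down primers, the replication factor C complex loads the PCNA ring, polymerase epsilon extends the leading strand, and Fen1 and Lig1 trim and join the fragments of the lagging strand. Many of these genes are transcribed under E2F factors, which Rb and p107 bind and hold in check. In normal adult bladder most urothelial cells are resting, so replication genes are commonly used as a readout of how many cells of a tissue are cycling.

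The promoters are shown first, because E2F letters, which the choice of genes did not use, stand in some of them. RefSeq promoter windows (build GRCm38.p6, 250 bases before to 50 bases after the annotated start, 300 bases in all) were matched for 29 of the 35 genes; Mcm4, Gins1, Gins2, Prim2, Pole and Ccne2 had none in that table. Windows were searched on both strands for the E2F letters TTTCCCGC, TTTGGCGC, TTTCGCGC and TTTGCCGC, and for CCAAT, the letters of the box that NF-Y binds. The stretches below run 5′ to 3′ on the gene's strand over the 160 bases that end just before the start, with matches in capitals. Mcm6, Mcm5 and Orc1 show E2F letters with CCAAT, and Rrm1 and Pcna, 2 of the genes with the widest differences between arrays, show CCAAT alone.
Mcm6, chr1:128359706-128359865, minus strand: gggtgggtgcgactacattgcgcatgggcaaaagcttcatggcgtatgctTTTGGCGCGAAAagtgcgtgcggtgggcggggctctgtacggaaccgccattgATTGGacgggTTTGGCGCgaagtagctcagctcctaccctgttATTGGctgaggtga
Mcm5, chr8:75109349-75109508, plus strand: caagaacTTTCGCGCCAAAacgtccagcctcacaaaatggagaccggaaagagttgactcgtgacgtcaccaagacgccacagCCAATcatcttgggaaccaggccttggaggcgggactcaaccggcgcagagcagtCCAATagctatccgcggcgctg
Orc1, chr4:108579294-108579453, plus strand: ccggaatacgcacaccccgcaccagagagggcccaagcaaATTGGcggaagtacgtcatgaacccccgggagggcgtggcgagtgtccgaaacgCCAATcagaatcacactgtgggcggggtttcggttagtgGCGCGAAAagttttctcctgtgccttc
Rrm1, chr7:102441535-102441694, plus strand: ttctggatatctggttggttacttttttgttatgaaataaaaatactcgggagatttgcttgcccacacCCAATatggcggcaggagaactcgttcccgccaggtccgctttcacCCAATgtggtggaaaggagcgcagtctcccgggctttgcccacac
Pcna, chr2:132253181-132253340, minus strand: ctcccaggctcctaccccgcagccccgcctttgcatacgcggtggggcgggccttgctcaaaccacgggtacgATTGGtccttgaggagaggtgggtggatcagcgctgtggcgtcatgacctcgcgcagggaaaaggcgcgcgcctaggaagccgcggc

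E2F letters stood in the windows of 10 of the 29 genes (34.5%): Orc1, Cdc6, Cdt1, Mcm3, Mcm5, Mcm6, Pola1, Pole2, Rfc3 and Lig1. Of all 27025 genes in the table, 2.60% held them, and of all 32851 windows 2.26%. CCAAT stood in 16 of the 29 (55.2%) against 41.1% of all genes, and both in 6 (20.7%) against 1.12%. Mcm3, Mcm5, Mcm6 and Rfc3 each held at least 2 E2F matches, a number that 0.107% of all genes reached. In Mcm5 and Mcm6 a match on each strand overlapped the other, which is why the capitals there run on as a single longer block. All 3 licensing genes with E2F letters (Orc1, Cdc6, Cdt1) load the helicase and Mcm3, Mcm5 and Mcm6 are subunits of it, whereas no gene of nucleotide supply, chromatin assembly or the cyclin and checkpoint group with a window had a match. A match is a description of these windows and shows neither binding nor regulation, and a gene with no match may hold other versions of the letters.

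**Figure D1:**
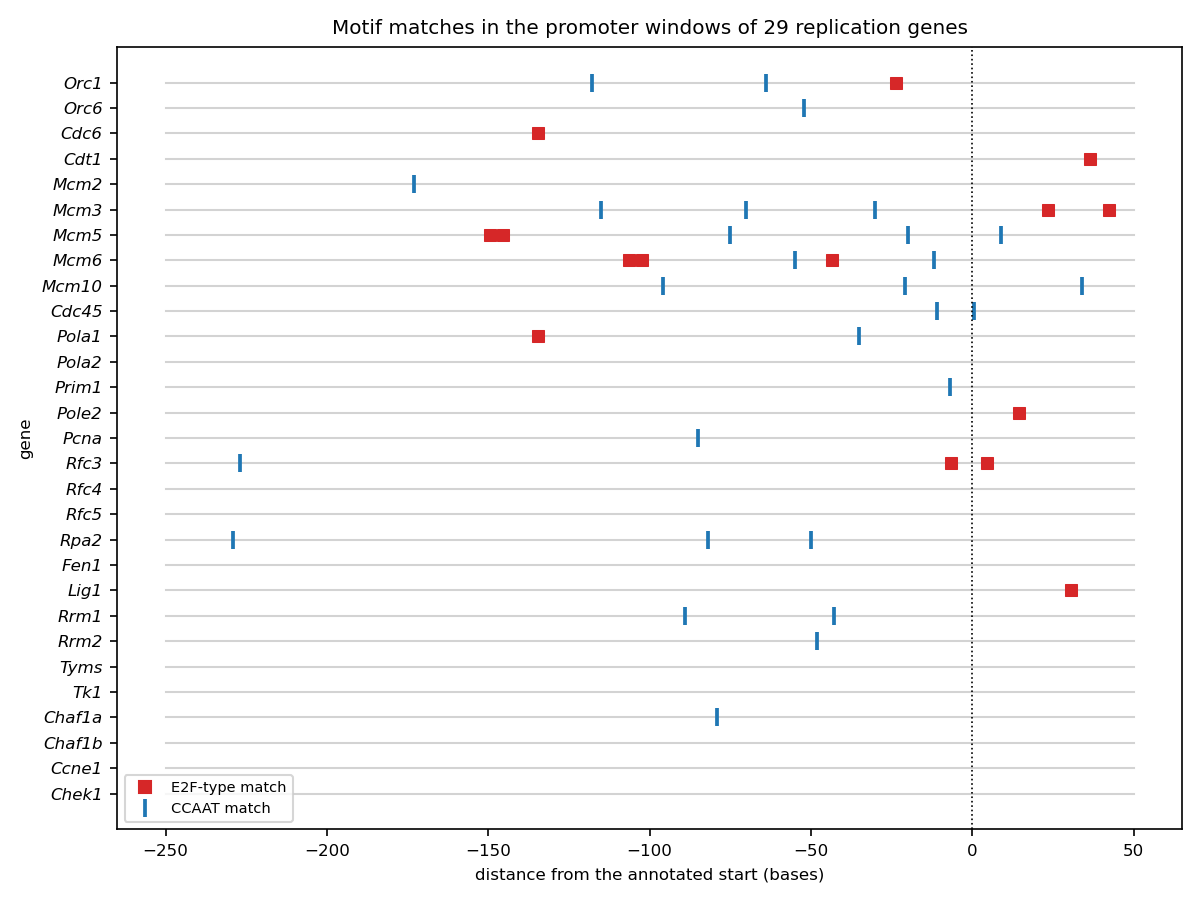
Positions of E2F and CCAAT letters in the 29 promoter windows, by gene (rows) and by distance in bases from the annotated start (horizontal axis, from 250 before to 50 after). The 10 genes with E2F letters are licensing, helicase, polymerase and clamp or lagging strand genes.

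A split of the arrays that crossed the untreated groups bears on every result below. For 3 of the controls (4, 5 and 6), 3 of the tumors (3, 4 and 5) and metastases 3 and 4, which make 8 arrays, the deviations of the genes from their means correlated with no other array above 0.14, whereas in the other 12 the best such correlation was 0.33 to 0.61, across genes. These 8 arrays are called near-mean arrays here. All treated bladders and the treated metastasis lay outside the 8, so between treated and untreated arrays this split cannot be fully told apart from treatment. The replication genes had a median range of 0.49 on the log2 scale over the 8 (all genes 0.72) and of 1.25 over the other 12 (all genes 0.84). Control bladders 1 and 2, the only controls outside the 8, read 10.8 and 10.9 for Xist, the RNA that silences an X chromosome in females, against at most 6.44 elsewhere, so that in any difference resting on these 2 arrays sex cannot be told apart from group. Of the engineered loci examined, Rb1 read 6.18 ± 0.19 (SD, n = 5) in control bladder and 5.99 ± 0.33 (n = 7) in bladder tumor, and Rbl1, which codes for p107, 6.51 ± 0.23 and 6.63 ± 0.29. In treated bladder (n = 3), metastasis (n = 4) and the treated metastasis, Rb1 read 6.01 ± 0.15, 6.05 ± 0.20 and 6.00. Rbl1 read 6.41 ± 0.52, 6.99 ± 0.87 and 7.50 there, and ran from 6.37 to 8.28 in the metastases. Where the probes of these loci lie relative to the deleted parts is not stated in these sources, so the genotype is not checked by them. Of the labelled tissues, markers of hepatocytes averaged 7.28 in metastasis 2, 6.03 in the treated metastasis and 5.82 in metastasis 1. They averaged 5.39 and 5.38 in metastases 3 and 4, and 4.78 to 5.70 in all bladder samples. Array medians ran from 5.07 to 5.42.

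Most of the replication genes were high or low together from array to array. Levels are log2 values after the authors' normalization, so a difference of 1 is a doubling, and they compare a gene with itself only. In bulk tissue, fewer cells of a type and less RNA per cell cannot be told apart. In bladder tumor 6, metastasis 1 and the treated metastasis, 34 of the 35 genes stood above their own median over the 20 arrays, and in bladder tumor 2, 33 did. Control bladders 1 and 2 and bladder tumor 7 had 0 of 35 above it, treated bladder 1 had 1 and treated bladder 3 had 3. Treated bladder 2 had 27. The near-mean arrays lay between, with 14 to 21. Of all genes, 39.7% to 61.3% stood above their own median in an array, with 39.7% in bladder tumor 6, 41.0% in metastasis 1, 41.8% in the treated metastasis and 61.3% in bladder tumor 2. In the low arrays that share was 45.9% and 48.5% for control bladders 1 and 2, 50.3% for bladder tumor 7, 56.0% for treated bladder 1 and 57.8% for treated bladder 3.

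Measured as the median deviation of the 35 genes from their means, the high arrays were metastasis 1 (0.62), bladder tumor 6 (0.59), the treated metastasis (0.47), bladder tumor 2 (0.20) and treated bladder 2 (0.17). Bladder tumor 1, at 0.08, did not stand above its own median deviation over all genes, 0.10, whereas in the other arrays that value lay between -0.09 and 0.04. The low ones were control bladder 1 (-0.45), control bladder 2 (-0.44), bladder tumor 7 (-0.41), treated bladder 3 (-0.35) and treated bladder 1 (-0.33). Every other array lay between -0.08 and 0.01. Neighbours in this order, such as metastasis 1 and bladder tumor 6, are single arrays and have no error of their own. Metastasis 1 held the highest level of 19 of the 35 genes, where 8.64% of all genes had theirs, and bladder tumor 6 that of 8 (9.63% of all genes). Control bladder 1 held the lowest level of 14 (2.72% of all genes) and bladder tumor 7 that of 9 (2.88%).

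**Figure D2:**
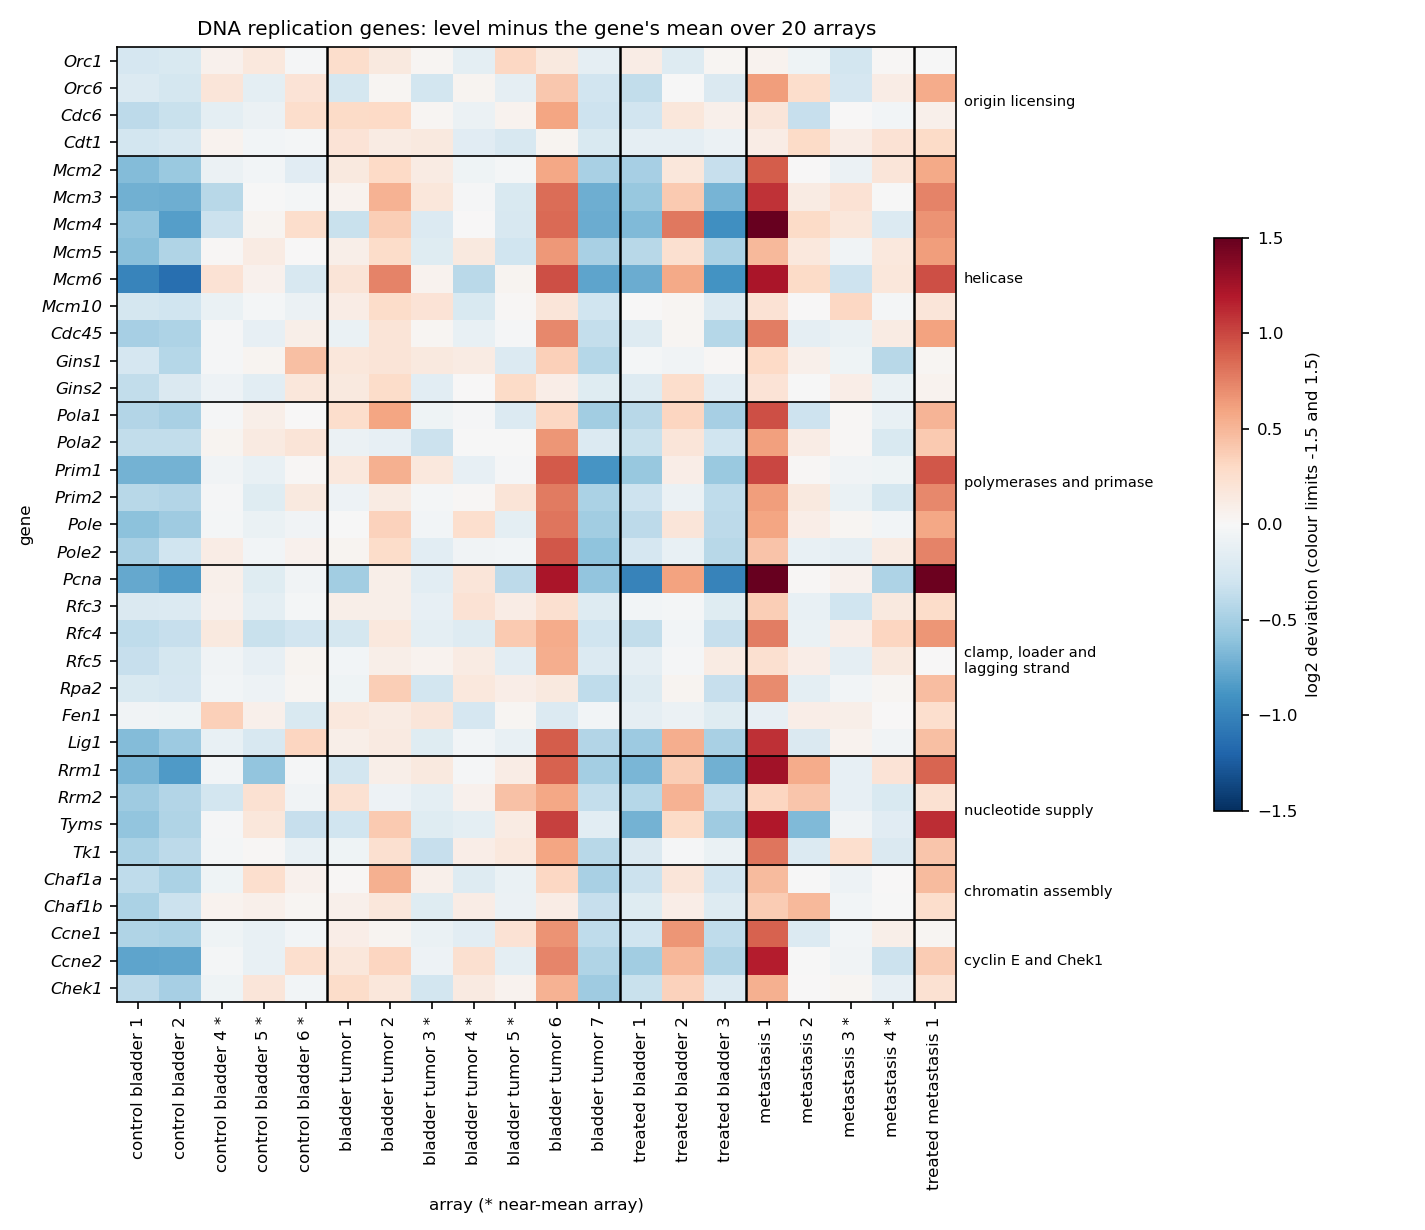
Deviation of each of the 35 replication genes (rows, ordered by role) from its own mean over the 20 arrays (columns, ordered by group), on the log2 scale. Metastasis 1, bladder tumor 6 and the treated metastasis are high across nearly all genes, control bladders 1 and 2, bladder tumor 7 and treated bladders 1 and 3 are low, and the near-mean arrays are close to 0.

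Of the helicase genes, Mcm4 (2.52), Mcm6 (2.36) and Mcm3 (1.82) had wide ranges over the 20 arrays, and Gins1 (0.88), Gins2 (0.66) and Mcm10 (0.62) narrow ones, against a median of 1.25 over the 35 genes. Gins1 and Gins2 were dim, which here means a mean level below the median of all genes. Mcm6, a subunit of the MCM ring, read 4.64, 4.49, 5.85, 5.70 and 5.39 in control bladders 1, 2, 4, 5 and 6. It read 4.83 to 6.59 in the 7 bladder tumors, with a median of 5.68. In treated bladders 1 to 3 it read 4.88, 6.19 and 4.73, in metastases 1 to 4 it read 6.85, 5.91, 5.32 and 5.80, and in the treated metastasis 6.60. Control bladders 1 and 2, treated bladders 1 and 3 and bladder tumor 7 were low for Mcm6, and every pair of groups with replicates overlapped. Mcm4, another subunit, read 5.77, 5.53, 6.03, 6.39 and 6.62 in the controls and 5.61 to 7.21 in the tumors, with a median of 6.15. It read 5.69, 7.14 and 5.44 in the treated bladders, 7.95, 6.64, 6.52 and 6.15 in the metastases and 7.02 in the treated metastasis. Its highest array was again metastasis 1, and its groups overlapped too.

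Mcm3, also a subunit of the ring, read 5.40, 5.38, 5.70, 6.12 and 6.09 in the controls, 5.39 to 6.95 in the tumors (median 6.17), 5.54, 6.51 and 5.43 in the treated bladders, 7.20, 6.25, 6.33 and 6.11 in the metastases and 6.86 in the treated metastasis. Only the lowest metastasis, at 6.11, lay below the highest control, at 6.12. Mcm10, which helps to start the helicase, read 5.20, 5.16, 5.37, 5.43 and 5.37 in the controls and 5.68, 5.47, 5.78 and 5.43 in the metastases, so that the 2 groups did not overlap, by a margin under the rounding of these values. Tumors read 5.16 to 5.74 for Mcm10 (median 5.58), treated bladders 5.47, 5.49 and 5.25, and the treated metastasis 5.64. The other helicase genes had narrower or similar patterns: over all 20 arrays Mcm2 ran from 4.77 to 6.33, Mcm5 from 5.13 to 6.40, Cdc45 from 5.17 to 6.44, Gins1 from 4.82 to 5.70 and Gins2 from 4.92 to 5.57. Mcm2, Cdc45 and Mcm4 had their highest level in metastasis 1 and their lowest in a control or treated bladder.

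The licensing genes varied less, but Orc1 and Cdt1 were dim, and whether low signal narrowed their ranges was not tested. Cdt1, which brings the MCM ring to the origin, read 4.63, 4.67, 4.96, 4.87 and 4.88 in the controls and 5.02, 5.19, 5.01 and 5.13 in the metastases, the other gene whose metastases all lay above the controls. Tumors read 4.66 to 5.11 for Cdt1 (median 4.94), treated bladders 4.77, 4.77 and 4.82, and the treated metastasis 5.19. Its range of 0.56 over the 20 arrays was the narrowest of the 35. Orc6, a subunit of the origin recognition complex, read 6.09, 6.02, 6.47, 6.14 and 6.50 in the controls, 6.00 to 6.69 in the tumors (median 6.15), 5.91, 6.28 and 6.07 in the treated bladders, 6.91, 6.55, 6.04 and 6.40 in the metastases and 6.84 in the treated metastasis. All of these groups overlapped. Orc1, the largest subunit of that complex, ran from 4.80 to 5.38 and Cdc6, the loading ATPase, from 5.65 to 6.63, with the highest Cdc6 in bladder tumor 6.

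Among the polymerase genes Prim1, the catalytic primase subunit, read 5.16, 5.16, 5.81, 5.76 and 5.88 in the controls, 4.98 to 6.79 in the tumors (median 6.02), 5.30, 5.96 and 5.31 in the treated bladders, 6.86, 5.88, 5.81 and 5.80 in the metastases and 6.80 in the treated metastasis. Bladder tumor 6, metastasis 1 and the treated metastasis were the 3 high arrays, and the groups overlapped. Over the 20 arrays Pola1, the catalytic subunit of polymerase alpha, ran from 5.68 to 7.17, its partner Pola2 from 5.40 to 6.43 and the second primase subunit Prim2 from 5.65 to 6.90. Pole, the catalytic subunit of polymerase epsilon, ran from 5.13 to 6.55 and its partner Pole2 from 5.00 to 6.54.

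Pcna had the widest range of the 35, at 3.25. It codes for the sliding clamp that keeps polymerases on DNA, and it also serves in DNA repair. It read 7.10, 7.03, 7.95, 7.69 and 7.82 in the controls, 7.29 to 9.10 in the tumors (median 7.71), 6.87, 8.48 and 6.87 in the treated bladders, 10.12, 7.88, 7.93 and 7.40 in the metastases and 9.35 in the treated metastasis. Metastasis 1, the treated metastasis, bladder tumor 6 and treated bladder 2 were high, and the groups overlapped. Lig1, the ligase that joins lagging strand fragments, ran from 5.76 to 7.50, and Rfc4, a subunit of the clamp loader, from 5.44 to 6.59. The other loader subunits Rfc3 and Rfc5 ran from 5.40 to 6.06 and from 4.98 to 5.87. Rpa2, which coats single-stranded DNA, ran from 5.22 to 6.31. Fen1, the flap nuclease, ran only from 5.08 to 5.70 and was an exception to the array pattern, since bladder tumor 6 (5.13) and metastasis 1 (5.21) were among its lower arrays. Its highest level stood in a near-mean array, as did those of Orc1, Gins1, Gins2 and Mcm10.

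In nucleotide supply, Rrm1, the large subunit of ribonucleotide reductase, read 5.53, 5.37, 6.18, 5.63 and 6.21 in the controls, 5.71 to 7.10 in the tumors (median 6.30), 5.53, 6.59 and 5.50 in the treated bladders, 7.48, 6.78, 6.09 and 6.42 in the metastases and 7.10 in the treated metastasis. Metastasis 3 lay within the range of the controls and the other metastases above it. Tyms, the thymidylate synthase, read 6.52, 6.66, 7.10, 7.29 and 6.77 in the controls, 6.82 to 8.14 in the tumors (median 6.97), 6.41, 7.40 and 6.59 in the treated bladders, 8.32, 6.46, 7.07 and 6.95 in the metastases and 8.22 in the treated metastasis. Every group overlapped every other with replicates. Rrm2, the small reductase subunit, ran from 4.42 to 5.53 and Tk1, the thymidine kinase, from 5.28 to 6.55.

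The remaining genes mostly followed the same arrays, but Chaf1a was highest in bladder tumor 2 and Chaf1b in metastasis 2. The cyclin E gene Ccne1 read 5.12, 5.10, 5.51, 5.45 and 5.53 in the controls, 5.19 to 6.24 in the tumors (median 5.61), 5.27, 6.23 and 5.19 in the treated bladders, 6.46, 5.37, 5.53 and 5.66 in the metastases and 5.60 in the treated metastasis. Ccne2, the second cyclin E gene, read 5.14, 5.15, 5.90, 5.82 and 6.18 in the controls, 5.48 to 6.66 in the tumors (median 6.10), 5.41, 6.43 and 5.48 in the treated bladders, 7.11, 5.92, 5.88 and 5.61 in the metastases and 6.31 in the treated metastasis. Treated bladder 2, bladder tumor 6 and metastasis 1 were high for both cyclins, and the groups overlapped. Chek1, the checkpoint kinase, ran from 5.17 to 6.23, and the chromatin assembly genes Chaf1a and Chaf1b from 6.02 to 7.04 and from 4.96 to 5.92.

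**Figure D3:**
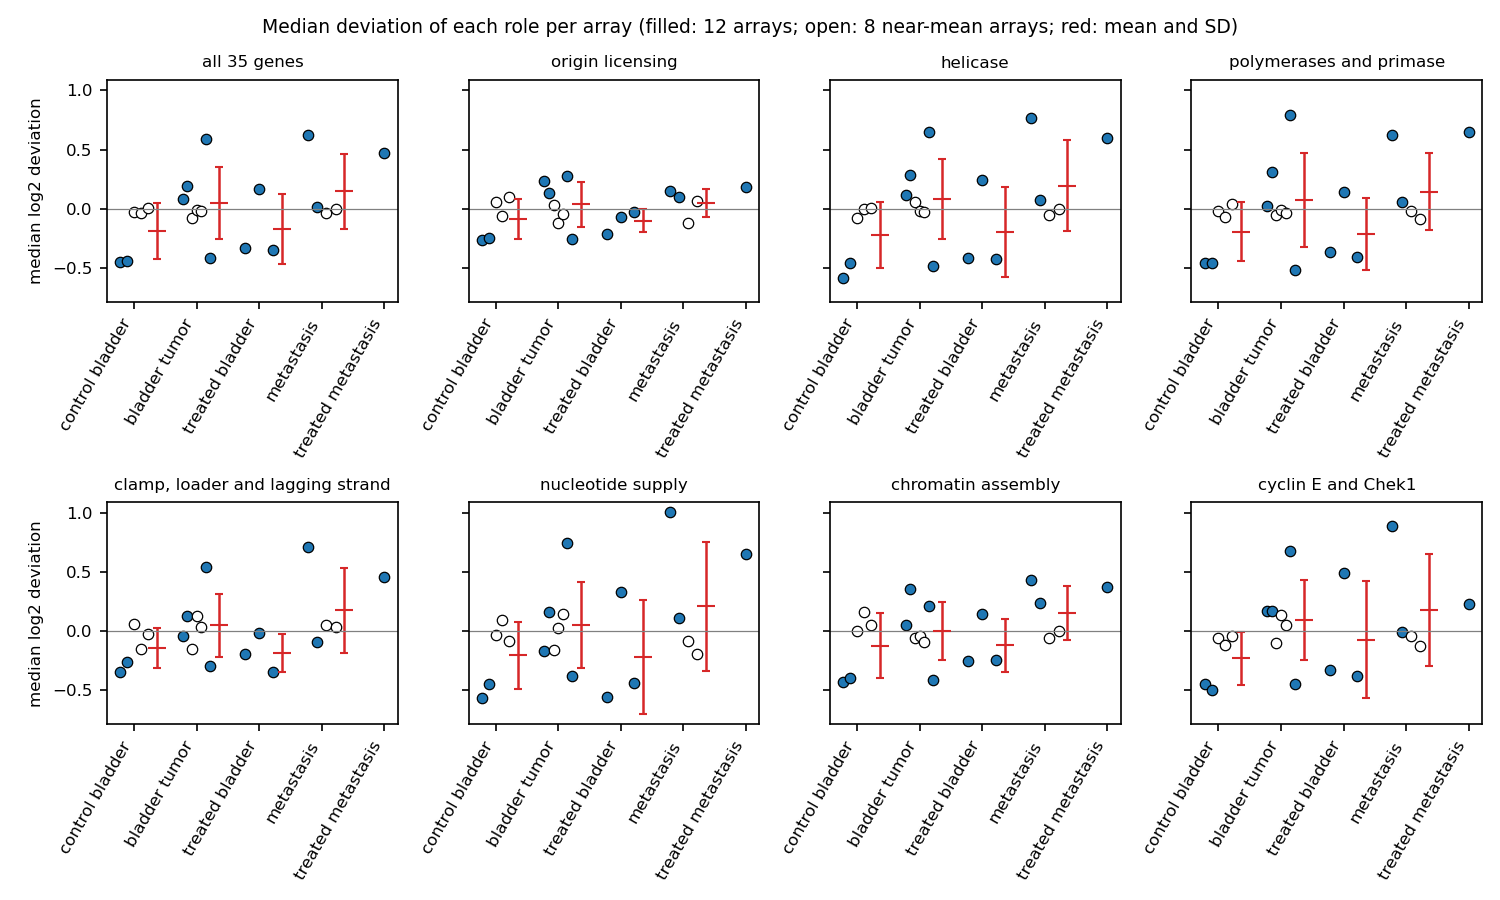
Median deviation of the genes of each role from their means (vertical axis, log2) in every array, by group. Each point is an array, open for the 8 near-mean arrays, and red marks give the mean and SD of a group. In the panel of all 35 genes metastasis 1 (0.62) and bladder tumor 6 (0.59) are the highest points and control bladders 1 and 2 (-0.45 and -0.44) the lowest; the order differs between roles, and for the polymerases the treated metastasis (0.65) lies above metastasis 1 (0.62) and bladder tumor 7 (-0.52) is the lowest.

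The first comparison asked whether tumors expressed more of the replication genes than control bladders. Of the 35 genes, 33 had a higher mean in tumor, against 53% of all genes, the exceptions being Orc6 and Fen1. The median difference of the 35 was 0.24 (range -0.03 to 0.53) and that of all genes 0.01. No gene passed: at an adjusted p under 0.05 limma called 0 of 30142 genes (0%), and at an unadjusted p under 0.05 it found 0 of the 35 genes and 4.28% of all genes. The largest differences were those of Mcm6 (0.53, SE 0.35, 95% interval -0.21 to 1.27), Rrm1 (0.50, SE 0.27), Mcm3 (0.47, SE 0.26), Prim1 (0.42, SE 0.27) and Ccne2 (0.41, SE 0.27), each with a limma adjusted p of 0.999. By role the median differences were 0.34 for nucleotide supply, 0.28 for cyclin and checkpoint genes, 0.24 for the helicase, 0.24 for the polymerases, 0.21 for the clamp and lagging strand, 0.12 for chromatin assembly and 0.11 for licensing.

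The size of this difference rested on few arrays. Without control bladders 1 and 2, 26 of the 35 genes had a higher mean in tumor and the median difference was 0.08. Without bladder tumor 6 it was 0.14, and without the 8 near-mean arrays, which leaves control bladders 1 and 2 as the only controls, it was 0.55 with all 35 higher. The count at an unadjusted p under 0.05 moved as well, to 15 of the 35 genes with array weights (10.4% of all genes), 8 without bladder tumor 7 (6.94%) and 6 without the 8 near-mean arrays (3.85%). Mcm6 differed by 0.35 without control bladder 2. The mitosis markers, whose peak comes later in the cell cycle, were higher in 14 of 14 (median 0.29), and the smooth muscle markers were lower in 10 of 10 (median -0.87), none of them called. The mean of the 10 smooth muscle markers was 8.42 in each of control bladders 1 and 2 and 9.34 in bladder tumor 7, arrays low for the replication genes, but also 8.30 in treated bladder 2, an array high for them, while it was 5.24 to 6.64 in the other 16 arrays. In the tumors as a group the smooth muscle mean ran from 5.29 to 9.34, and the mean of the 11 luminal urothelium markers was 6.61 to 7.96 in the controls and 5.46 to 9.35 in the tumors. Values on this scale have no zero, so no marker can be called absent. The part of these tissue differences in the result was not tested.

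Treated bladder was then set against untreated bladder tumor. All 35 genes had a lower mean in treated bladder, against 50.6% of all genes, with a median difference of -0.19 (range -0.48 to -0.06; all genes 0.00). None passed: limma called 0 of 30142 genes (0%), and at an unadjusted p under 0.05 there were 0 of the 35 genes and 0.488% of all genes. Mcm6 differed by -0.48 (SE 0.41, 95% interval -1.34 to 0.39), Prim1 by -0.45 (SE 0.31), Pcna by -0.44 (SE 0.50), Tyms by -0.43 (SE 0.34) and Rrm1 by -0.41 (SE 0.31), each with a limma adjusted p of 1.0. The intervals of these genes reached from over 1 log2 unit below 0 to above 0, so neither a fall nor its absence is shown. By role the medians were -0.31 for the polymerases, -0.30 for nucleotide supply, -0.24 for the helicase, -0.18 for the clamp and lagging strand, -0.12 for licensing, -0.12 for chromatin assembly and -0.11 for cyclin and checkpoint genes.

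The 3 treated bladders were spread widely for these genes. Treated bladder 2 read higher than treated bladders 1 and 3 by over 1 log2 unit for Pcna (8.48 against 6.87 and 6.87), Mcm4 (7.14 against 5.69 and 5.44) and Mcm6 (6.19 against 4.88 and 4.73). Without treated bladder 2 the median difference from tumor was -0.39, without treated bladder 1 it was -0.13 and without treated bladder 3 it was -0.12, and without bladder tumor 6 it was -0.12. Without treated bladder 2 Mcm6 differed by -0.94, Pcna by -0.98, Tyms by -0.73 and Rrm1 by -0.76, and with other single arrays left out the smallest differences of these genes were -0.21, -0.17, -0.23 and -0.22. At an unadjusted p under 0.05 stood 3 of the 35 genes without treated bladder 2 (1.61% of all genes) and 2 without bladder tumor 7 (1.05%). Without the 8 near-mean arrays the median difference was -0.24, with all 35 genes lower. The mitosis markers had a lower mean in 14 of 14 (median -0.29), while 9 of 10 smooth muscle markers (median 0.65) and 10 of 11 luminal urothelium markers (median 0.44) had a higher one, none of them called. Tissue of the treated samples is labelled as bladder and that of the untreated ones as bladder tumor, so a difference in tumor content and a difference within tumor cells cannot be told apart.

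**Figure D4:**
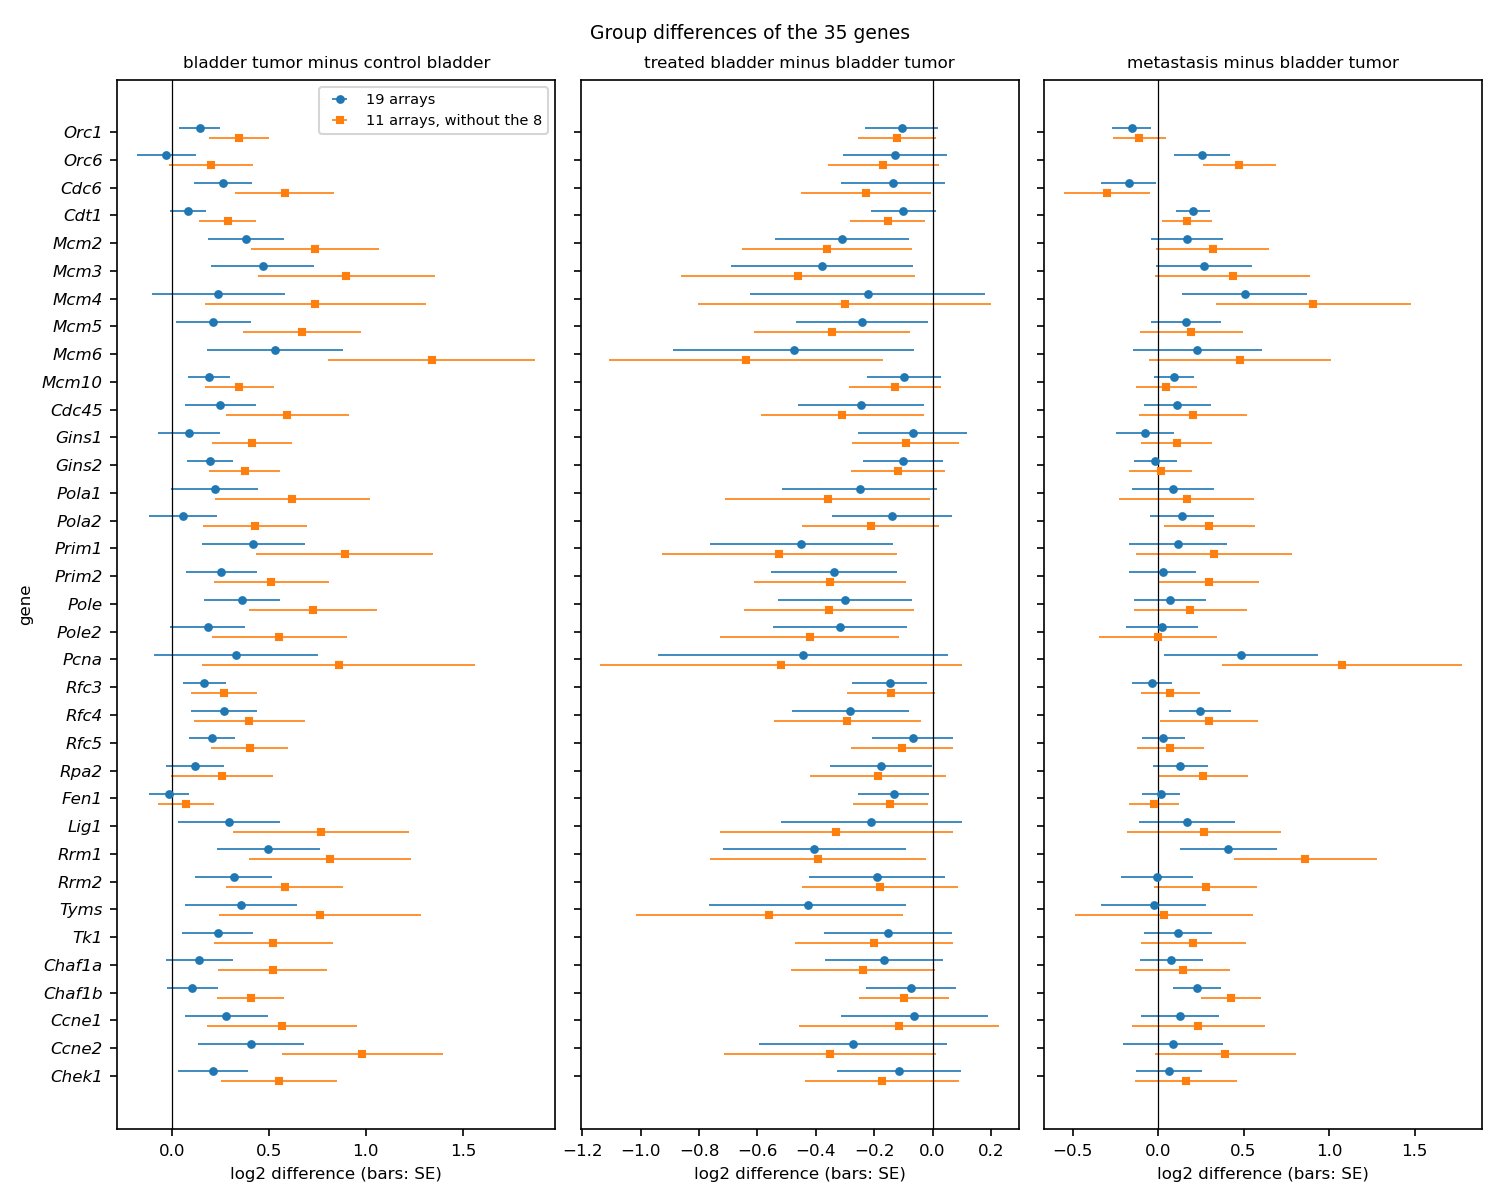
Log2 difference between group means for each of the 35 replication genes (rows, by role) in tumor minus control, treated bladder minus tumor and metastasis minus tumor; bars are SE, circles the fit of 19 arrays and squares that without the 8 near-mean arrays. Of the circles, 33 lie above 0 in tumor minus control and all 35 lie below it in treated bladder minus tumor, and no gene passed the adjusted threshold in either fit.

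Treated bladder and control bladder were close in this measure. Of the 35 genes 21 had a higher mean in treated bladder, against 52.8% of all genes, with a median difference of 0.02 (range -0.15 to 0.22; all genes 0.01). limma called 0 of 30142 genes (0%), and 0 of the 35 genes stood at an unadjusted p under 0.05, against 0.763% of all genes. The largest differences were those of Ccne1 (0.22, SE 0.27), Orc6 (-0.15, SE 0.19), Fen1 (-0.15, SE 0.13), Rfc5 (0.14, SE 0.15) and Ccne2 (0.14, SE 0.34), each with a limma adjusted p of 1.0. The median turned with the controls used: without control bladders 1 and 2 it was -0.15 with 3 genes higher, and without the 8 near-mean arrays 0.31 with 34 higher. With single arrays left out it ran from -0.17 (without treated bladder 2) to 0.08, and was -0.05 without control bladder 1 and -0.04 without control bladder 2. Both comparisons of treated bladder share its 3 arrays. Role medians lay between -0.05 for the polymerases and 0.14 for cyclin and checkpoint genes.

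Metastases were set against the bladder tumors. Here 28 of the 35 genes had a higher mean in metastasis, against 43.8% of all genes, with a median difference of 0.11 (range -0.17 to 0.51; all genes -0.03). limma called 0 of 30142 genes (0%), and 0 of the 35 genes stood at an unadjusted p under 0.05, against 6% of all genes. Mcm4 differed by 0.51 (SE 0.37, limma adjusted p = 0.856), Pcna by 0.49 (SE 0.45, 0.883), Rrm1 by 0.41 (SE 0.28, 0.852), Mcm3 by 0.27 (SE 0.28, 0.901) and Orc6 by 0.26 (SE 0.16, 0.844). The direction rested on metastasis 1: without it 10 of the 35 genes had a higher mean, the median was -0.07, and Pcna differed by -0.11, Mcm4 by 0.13, Rrm1 by 0.15, Mcm3 by 0.024 and Orc6 by 0.11. Without bladder tumor 7 the median was 0.03 and without bladder tumor 6 it was 0.19, and without any one of metastases 2, 3 and 4 it was 0.17. The role medians ran from 0.02 for licensing to 0.16 for the helicase. All 7 macrophage markers had a higher mean in metastasis (median 0.76) and their mean level was 6.45 to 8.46 in the metastases against 5.70 to 7.04 in the tumors; their part in the result was not tested.

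The largest distance was that between metastasis and control bladder. Of the 35 genes 34 had a higher mean in metastasis, against 47.1% of all genes, with a median difference of 0.31 (range -0.01 to 0.91; all genes -0.01). limma called 0 of 30142 genes (0%). At an unadjusted p under 0.05 stood 7 of the 35 genes, all higher in metastasis, against 7.12% of all genes: Cdt1, Mcm2, Mcm3, Mcm10, Rfc4, Rrm1 and Chaf1b. Rrm1 differed by 0.91 (SE 0.30, 95% interval 0.27 to 1.55, limma adjusted p = 0.676), Pcna by 0.82 (SE 0.48, 0.741), Mcm6 by 0.76 (SE 0.40, 0.723), Mcm4 by 0.75 (SE 0.39, 0.721) and Mcm3 by 0.74 (SE 0.30, 0.677). Cdt1, a dim gene, and Mcm10 were the 2 of 35 genes whose metastases all lay above all controls, as 0.995% of all genes did. By role the medians were 0.41 for cyclin and checkpoint genes, 0.38 for the helicase, 0.34 for nucleotide supply, 0.30 for the polymerases, 0.28 for chromatin assembly, 0.25 for the clamp and lagging strand and 0.16 for licensing.

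This comparison leaned on the same arrays as the others. Without metastasis 1 the median was 0.17, with 2 of the 35 genes at an unadjusted p under 0.05, against 4.93% of all genes. In that run Pcna differed by 0.22, Mcm4 by 0.37 and Mcm6 by 0.47. With array weights 18 genes stood at an unadjusted p under 0.05, against 12.9% of all genes. There were 3 such genes among the 35 without control bladder 1 (5.54% of all genes) and 3 without control bladder 2 (5.15%). Without both of these controls the median was 0.15, with 0 such genes among the 35 (4.31% of all genes). Without the 8 near-mean arrays, which leaves 2 metastases and 2 controls, the median was 0.79 with all 35 genes higher. There 16 of the 35 stood at an unadjusted p under 0.05, against 7.44% of all genes, still with none of the 35 called. All 14 mitosis markers had a higher mean in metastasis (median 0.45), all 10 smooth muscle markers a lower one (median -1.58) and all 7 macrophage markers a higher one (median 1.0), none of them called. Smooth muscle marker means were 5.38 to 6.50 in metastasis and 6.53 to 8.42 in control bladder. The part of these differences in tissue in the result was not tested.

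**Figure D5:**
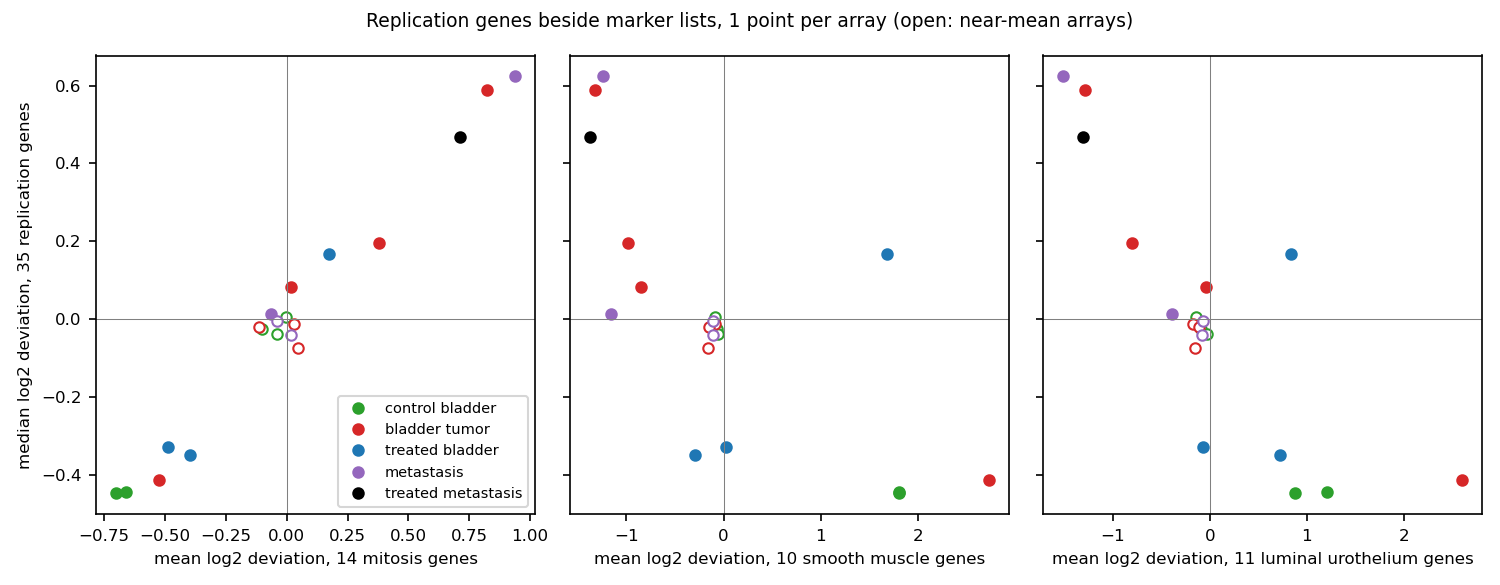
Median deviation of the 35 replication genes (vertical axis, log2) against the mean deviation of the 14 mitosis, 10 smooth muscle and 11 luminal urothelium markers (horizontal axes, log2), with 1 point per array coloured by group and open for near-mean arrays. Control bladders 1 and 2 and bladder tumor 7 are high for smooth muscle and low for the replication genes, and treated bladder 2 is high for both.

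The treated metastasis is a single array and was set beside the 4 untreated metastases without a test. In it 33 of the 35 genes read above the mean of the 4, against 43.8% of all genes, with a median difference of 0.27, and the exceptions were Ccne1 and Rfc5. It lay within the range of the 4 for 31 genes, above all 4 for Mcm5, Prim2, Pole2 and Fen1, and below all 4 for 0. Of all genes 14.4% lay above all 4, near the share of these 4 of 35, and 19.1% below. It read below metastasis 1 for 30 genes (median difference -0.15) and above each of the other 3 for 26. Pcna, at 9.35, lay between metastasis 1 (10.12) and the rest (7.40 to 7.93), and Tyms, at 8.22, between 8.32 and 6.46 to 7.07. The mitosis markers averaged 6.48 in this array, against 5.70 to 6.71 in the untreated metastases, and the macrophage markers 7.76 against 6.45 to 8.46.

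The other genes of the replication machinery, a wider list of 52 measured genes with the remaining origin, firing, polymerase, clamp loader, nucleotide and histone deposition factors and the E2F genes, had smaller median differences of the same sign. In tumor minus control 42 of 52 had a higher mean (median 0.14), and in treated bladder minus tumor 3 of 52 did (median -0.12). In treated bladder minus control 31 of 52 were higher (median 0.01), in metastasis minus tumor 39 (median 0.08) and in metastasis minus control 47 (median 0.23). None of the 52 passed in any of the 5 comparisons over all arrays. The largest differences in tumor minus control were those of Ccna2, the cyclin of S phase and G2 (0.65, SE 0.32), Asf1b, a histone chaperone (0.53, SE 0.38), and Hells, a chromatin remodeller (0.51, SE 0.27), each with a limma adjusted p of 0.999. By group within this list, the E2F genes with Ccna2, Cdk2 and Cdc25a had a higher mean in tumor in 8 of 8 cases (median 0.21) and the helicase and firing factors in 13 of 14 (median 0.15). The other licensing genes were higher in 1 of 4 (median -0.12), so the licensing genes had the lowest median in both lists. In the first list Orc1 and Cdt1 were dim.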

How the data were processed

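A kit for formalin-fixed tissue gave total RNA, of which 12 ng per sample was labelled for whole-transcript arrays, per the labels' protocols. Per the submitters' processing notes, the authors used RMA and Affymetrix Expression Console to make the deposited log2 values; their versions and settings are not stated in the sources at hand. RMA equalises the arrays' distributions, so a change in total RNA is not seen. Of 65956 rows, 30604 had 1 gene symbol in the platform annotation, 2146 had several and were not used, and 33206 were unnamed here. This gave 30142 genes; 355 had more than 1 row, of which the one brightest on average was used, and 827 symbols were updated by gene ID in a GRCm38.p6 table. No scanner files were used, so signal over background is unknown.

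limma 3.58.1 (R 4.3.3; lmFit, eBayes) was fitted to the 19 arrays of the 4 replicated groups with no covariates, with two-sided p-values and Benjamini-Hochberg adjustment over all genes in each of 5 comparisons (threshold 0.05). The treated metastasis entered no test. The code of the fit was run on simulated data. There genes varied independently and all arrays had equal spread, unlike in these data, so that run does not bear on these results. The genes and lists were chosen with earlier results of these data known, so no test over the genes as a set was made. In each comparison the 5 replication genes with the largest difference are given with their error, and from the wider list the 3 with the largest in tumor minus control; genes outside both, Mcm10, Cdt1 and the exceptions named, were singled out after their values were seen. The near-mean arrays (no correlation above 0.2 with another array) and the high Xist controls were set apart after the data were seen. Alternatives were a fit of the 2 groups alone, each array left out in turn, the replicate number as a block, array weights, a trended robust prior, a repeat of quantile normalization, array medians as centres, no dim genes and averaged rows. Promoter windows came from RefSeq.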

Additional observations from a re-analysis of the deposited data

Results flagged for a closer look

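Dixon's 95% criterion was applied 129 times, each time to a gene, or to a median over genes, within a group of arrays. It flagged a single array far from the rest 9 times. Chance gives about 1 in 20 for independent checks, but these share genes and arrays and are not independent. Metastasis 1 stood apart from the other metastases for the median deviation of all 35 replication genes, at 0.62 against -0.04 to 0.01. For the helicase genes it was 0.77 against -0.05 to 0.07, and for the cyclin and checkpoint genes 0.89 against -0.12 to -0.01. Among single genes it stood apart for the primase gene Prim1 (6.86 against 5.80 to 5.88) and for Chaf1a, a chromatin assembly factor (6.99 against 6.43 to 6.51). Bladder tumor 6 stood apart from the other tumors for Pcna (9.10 against 7.29 to 8.05), Lig1 (7.31 against 5.97 to 6.54) and Pola2 (6.43 against 5.45 to 5.77). Control bladder 4 stood apart for Rfc4, at 5.97 against 5.44 to 5.54 in the other controls. These 9 values come from 3 arrays, and groups of 3 or fewer were not examined.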

How the results depend on the processing

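None of the 35 replication genes was called in any comparison under any alternative run, which leaves their direction as the only thing to compare. Without the 8 near-mean arrays the median difference of the 35 genes was 0.55 in tumor minus control and 0.79 in metastasis minus control, and limma called 1 gene of all genes in tumor minus control, 1 in treated bladder minus control, 4 in metastasis minus tumor and 5 in metastasis minus control. In metastasis minus tumor 2 genes were called with array weights and 2 without dim genes, and in metastasis minus control 1 with the 2 groups alone. With single arrays left out, counts ran from 0 to 2 in metastasis minus tumor and from 0 to 1 in metastasis minus control. The cause of these moves was not tested. In treated bladder minus control the median was -0.012 with quantile normalization once more, -0.15 without both high Xist controls and -0.17 to 0.084 with single arrays left out. There Ccne1 ran from -0.11 to 0.41 and Ccne2 from -0.19 to 0.32 with single arrays left out, Ccne2 was -0.19 without both high Xist controls, and Orc6 was 0.030 with the replicate block and 0.034 without the 8 near-mean arrays. In metastasis minus tumor, leaving out single arrays gave medians from -0.070 to 0.19 and Pcna from -0.11 to 0.80.

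The labels name no pairing of samples with the same number. Their deviations from the group means correlated from -0.51 to 0.44. The highest value was that of treated bladder 1 with bladder tumor 1, the only such pair that matched best within the other group. The treated metastasis was left out of this check. In deviations from the means over all arrays, it and metastasis 1 were each other's best match, at a correlation of 0.59. Whether any samples share an origin was not tested. With the replicate block the median difference was 0.37 in tumor minus control, -0.18 in treated bladder minus tumor, 0.17 in treated bladder minus control, 0.11 in metastasis minus tumor and 0.47 in metastasis minus control, with 0 genes called in each. At an unadjusted p under 0.05 the block gave 12 of the 35 genes in tumor minus control (6.07% of all genes), 17 in metastasis minus control (8.50%) and 0 in the other comparisons. Dropping dim genes left 29 of the 35 genes, without Orc1, Cdt1, Gins1, Gins2, Rfc5 and Rrm2. The arrays' signal over background is unknown, and small groups, with 3 treated bladders and 1 treated metastasis, limit the precision of every value.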
